A study of Mus musculus with 3 samples.

Results

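Pericytes and vascular smooth muscle cells are the mural cells of the brain's vessels. Pericytes lie in the basement membrane of capillaries, where they share a matrix with the endothelium and are recruited to it by platelet-derived growth factor. Smooth muscle cells wrap arteries, arterioles and, more thinly, veins, and set vessel diameter through actin and smooth muscle myosin. A set of 10 genes in common use as their markers is described here: Kcnj8, Abcc9, Vtn, Rgs5, Pdgfrb and Pdgfb, which are used for pericytes and their signalling, and Acta2, Tagln, Myh11 and Pln, which are used for smooth muscle. They were taken by symbol from the 31053 genes of the matrix and were chosen by their measured levels in these same cells, so those levels are a description and no test is given.

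The data were single-cell RNA counts from mouse brain, with 1 library each for control, Ischemic Stroke (IS) and Hemorrhagic Stroke (HS), and no replicate library. The labels give the strain as C56BL6 and the age as 10 weeks for all groups, and name no transgene. IS was produced by occluding the middle cerebral artery with a suture and reperfusing, and HS by injecting collagenase into the right striatum. Several mice of a condition were pooled in its library, and the dissociated tissue was not sorted for vessels. All libraries lie in 1 matrix, in which the ending of a barcode, 1, 2 or 3, names its library, here called library 1, 2 and 3. The labels used here do not say which of them belongs to which condition, so conditions are not compared.

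Of 35968 barcodes, 31982 held at least 1000 UMIs (unique molecular identifiers, 1 per captured transcript) and at most 30% mitochondrial UMIs. Library totals were between 69270514 and 105957232 UMIs, and the median kept barcode held 6147. Barcodes with a UMI of 2 or more of the 4 genes Notch3, Des, Myl9 and Higd1b were taken as mural. These genes encode a Notch receptor of mural cells, the intermediate filament desmin, a regulatory myosin light chain and a mitochondrial protein. There were 550 mural barcodes, 1.72% of those kept, with a median of 8028 UMIs. Library 3 held 517 of them, library 2 held 28 and library 1 held 5, or 5.59%, 0.203% and 0.0557% of the kept barcodes of each. The endothelial-like barcodes were spread in the same order, with 977, 17 and 2. Most values of mural barcodes below therefore describe library 3, though those of smooth muscle also draw on library 2, as given below. No mural barcode sequence occurred in more than 1 library among the mural barcodes, and 4 of the 550 also occurred in another library among all barcodes.

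The rule for mural barcodes was graded at its edge. Of the 137 barcodes with exactly 2 of the 4 genes, 40.9% held Kcnj8, 74.5% Vtn, 83.2% Rgs5 and 24.1% Acta2. Of the 585 barcodes with exactly 1, left outside, 3.59% held Kcnj8, 21.2% Vtn, 26.0% Rgs5 and 8.55% Acta2. Most of these 585 carried the markers of another cell type, led by 158 oligodendrocyte-like and 132 endothelial-like barcodes.

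The 7 genes Kcnj8, Abcc9, Vtn, Acta2, Tagln, Myh11 and Pln parted the mural barcodes into a larger and a smaller set with few between. For each barcode, the UMIs of the 4 contractile genes were taken as a share of the UMIs of all 7. A share of at most 25% placed a barcode on the pericyte side and a share of at least 75% on the smooth muscle side, with at least 3 UMIs required. There were 357 barcodes on the pericyte side, 64.9% of the mural barcodes (exact 95% interval 60.8% to 68.9%, counting error only). The smooth muscle side held 116, or 21.1% (17.8% to 24.7%). A further 30 were mixed and 47 had under 3 UMIs of the 7 genes. Of the 503 barcodes with enough UMIs, 343 had a share under 10% and 92 a share over 90%, so that 86.5% lay at the ends. No contractile UMI was found in 277 of the 503, and no pericyte UMI in 28. The cuts bear on few barcodes, since 22 lay within 5 percentage points of one. The minimum of 3 UMIs was not scaled to depth, so some deep barcodes were placed on very few UMIs. A pericyte-side barcode of 40843 UMIs held 3 pericyte UMIs and 0 contractile UMIs, and another of 67758 UMIs held 4 and 1. The median pericyte-side barcode held 77 UMIs of the 7 genes. Whether such barcodes are pericytes was not tested, so the shares at the ends include weakly placed barcodes.

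**Figure D1:**
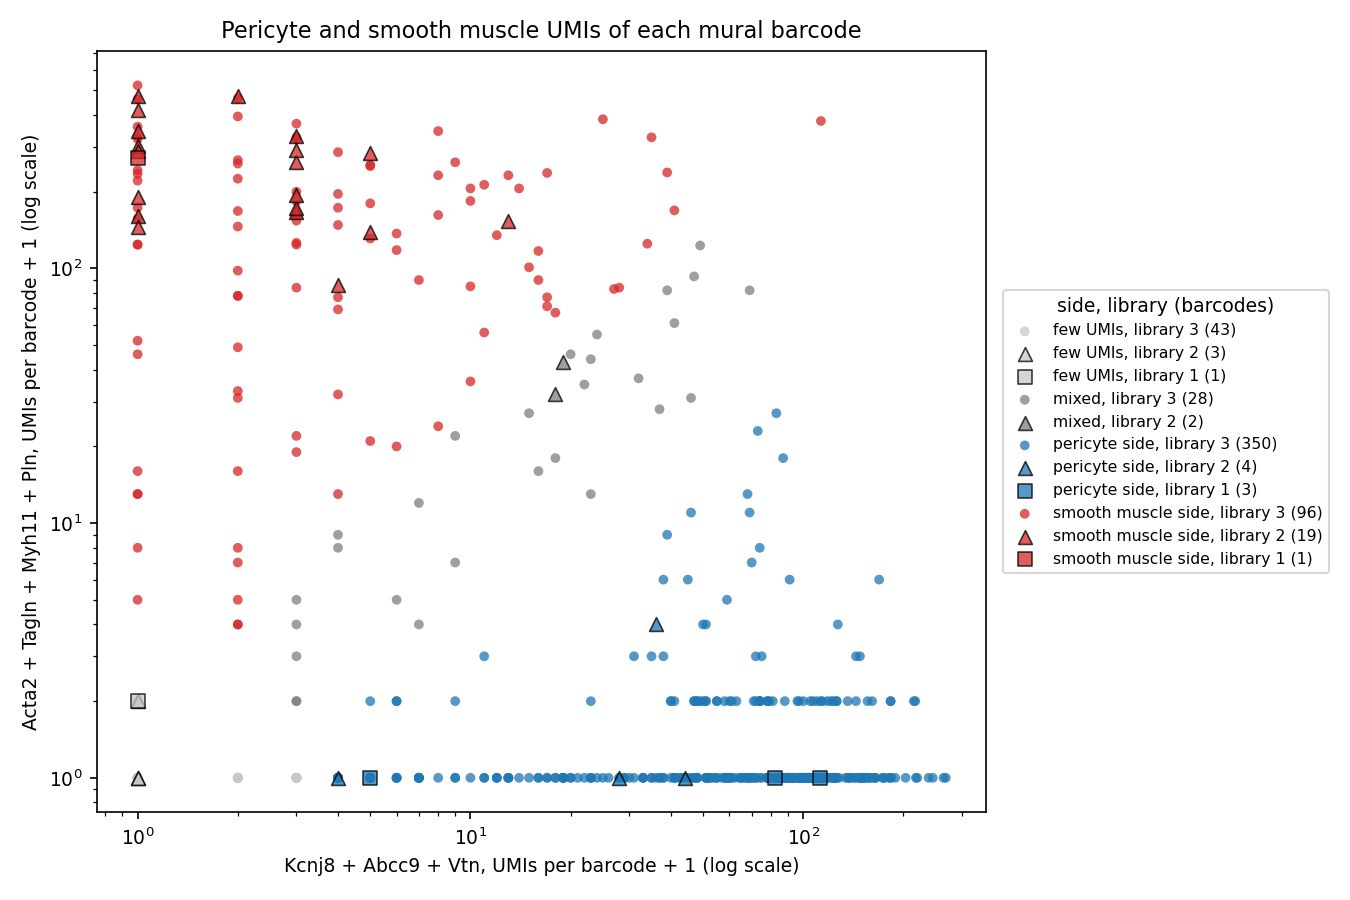
Each point is 1 mural barcode, placed by its summed UMIs of Kcnj8, Abcc9 and Vtn (x axis, plus 1, log scale) and of Acta2, Tagln, Myh11 and Pln (y axis, plus 1, log scale), coloured by side and shaped by library, with the number of barcodes in the key. The 357 pericyte-side barcodes lie along the bottom and the 116 smooth muscle-side barcodes at the upper left, with 30 mixed barcodes between.

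The proportions differed between the libraries with mural barcodes. In library 3, 350 of 517 mural barcodes were on the pericyte side (67.7%, 63.5% to 71.7%) and 96 on the smooth muscle side (18.6%, 15.3% to 22.2%). In library 2, 4 of 28 were on the pericyte side (14.3%, 4.03% to 32.7%) and 19 on the smooth muscle side (67.9%, 47.6% to 84.1%). The intervals did not overlap, but they cover counting error only, and 1 library of each kind allows no test of a condition. Library 1 had 3 and 1.

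Kcnj8 and Abcc9 encode the pore and the sulfonylurea receptor of a vascular ATP-sensitive potassium channel. The genes are neighbours on chromosome 6 (GRCm38; Kcnj8 at 142564837 to 142571614 and Abcc9 at 142587862 to 142702315, both on the minus strand), 16247 bases apart. Kcnj8 was found in 85.4% of pericyte-side barcodes at 366 CPM (UMIs of the gene per 1000000 UMIs of all genes, summed over the barcodes; 95% Poisson interval 349 to 385), with a median of 3 UMIs and a highest of 31. On the smooth muscle side it was found in 7 of 116 barcodes at 12.7 CPM (7.09 to 20.9). Abcc9 was found in 76.2% of pericyte-side barcodes at 231 CPM (217 to 246) and in 2 of 116 smooth muscle-side barcodes with 1 UMI each, at 1.69 CPM. The Abcc9 ratio was 137-fold, with a counting interval of 37.8 to 1132, and the Kcnj8 ratio 28.9-fold (17.5 to 51.8). Both channel genes were seen together in 248 of the 357 pericyte-side barcodes and neither in 28.

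Vtn, which encodes the adhesive matrix protein vitronectin (chromosome 11, 78499091 to 78502324), was, of the 3 pericyte genes of the split, the one found most often on the smooth muscle side. It was found in all 357 pericyte-side barcodes, at 5475 CPM (5407 to 5544), with between 1 and 243 UMIs and a median of 66. On the smooth muscle side 88 of 116 barcodes held it, at 589 CPM (546 to 635), with a median of 2 UMIs and a highest of 108. The ratio was 9.29-fold (8.62 to 10.0). In oligodendrocyte-like barcodes of library 3, taken as background, Vtn stood at 12.7 CPM with a UMI in 7.44% (median depth 6383 UMIs, against 7318.5 on the smooth muscle side). The smooth muscle side of that library was at 651 CPM, above this level.

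Each of these genes had helped to place its own barcodes. When it was left out and the side read from the other 6 genes, the log2 difference (with 10 CPM added) was 4.06 for Kcnj8, 4.37 for Abcc9 and 2.80 for Vtn. Without Vtn, 244 barcodes remained on the pericyte side and 149 were on the smooth muscle side, with Vtn at 6818 and 970 CPM.

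Rgs5, Pdgfrb and Pdgfb had no part in the split. Rgs5, a regulator of G protein signalling, was at 2603 CPM on the pericyte side (2556 to 2651) and 1939 CPM on the smooth muscle side (1860 to 2020), only 1.34-fold apart (1.28 to 1.40). It was found in 99.7% and 87.1% of the barcodes, with medians of 25 and 9 UMIs. In library 3 alone it was at 2629 CPM (2581 to 2677) and 2168 CPM (2078 to 2260). Pdgfrb encodes the receptor through which platelet-derived growth factor B recruits mural cells (chromosome 18, 61045150 to 61085061). It was at 293 CPM (277 to 309) and 130 CPM (110 to 152), a ratio of 2.25-fold (1.90 to 2.68), in 83.2% and 64.7% of barcodes. Rgs5 and Pdgfrb were thus found on both sides. Their ratios were larger, at 2.66-fold and 4.65-fold, in barcodes under 10% of the level of endothelial markers. Pdgfb, the ligand, was at 188 CPM (175 to 201) and 136 CPM (116 to 159), in 56.3% and 35.3%, and its values are taken up with the endothelial markers below.

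The contractile genes were nearly absent from the pericyte side. Acta2, smooth muscle alpha-actin, was found in all 116 smooth muscle-side barcodes at 8910 CPM (8741 to 9082), with between 2 and 267 UMIs and a median of 84. On the pericyte side it was found in 30 of 357 barcodes at 18.5 CPM (14.7 to 22.9), a ratio of 482-fold (388 to 605). Tagln, the actin-binding transgelin, was at 5857 and 13.8 CPM, in 97.4% and 8.12% of barcodes, a ratio of 424-fold (330 to 553). Myh11, the smooth muscle myosin heavy chain, was at 1593 and 17.6 CPM, in 110 of 116 and 43 of 357 barcodes, a ratio of 90.5-fold (72.2 to 115). For comparison, oligodendrocyte-like barcodes of library 3 held 4.63 CPM of Acta2, 3.56 of Tagln and 1.03 of Myh11, and pericyte-side barcodes of that library 18.7, 14.1 and 17.6 CPM. The smooth muscle side of library 3 was at 7886, 5008 and 1294 CPM, below the values with all libraries pooled.

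Pln was the one member with no UMI at all on the pericyte side. It encodes phospholamban, the inhibitor of the sarcoplasmic reticulum calcium pump (chromosome 10, 53337667 to 53345987). No pericyte-side barcode of 357 held a UMI, which with a limit of 3 counts allows a share of up to 0.840%, against 97 of 116 on the smooth muscle side at 540 CPM (499 to 583). Taking 3 UMIs over the whole pericyte side as its limit, Pln was 807-fold higher on the smooth muscle side. The counting interval of the ratio began at 654-fold. In library 3 alone the smooth muscle side held Pln at 440 CPM (400 to 483). All 4 contractile genes were found together in 95 of the 116 smooth muscle-side barcodes (81.9%) and in none of the pericyte-side barcodes, where 277 of 357 held none of them. The sides were set by these same genes, so these counts only describe the split. When each gene was left out of the split in turn, the log2 differences were -7.92 for Acta2, -7.97 for Tagln, -5.86 for Myh11 and -5.82 for Pln.

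**Figure D2:**
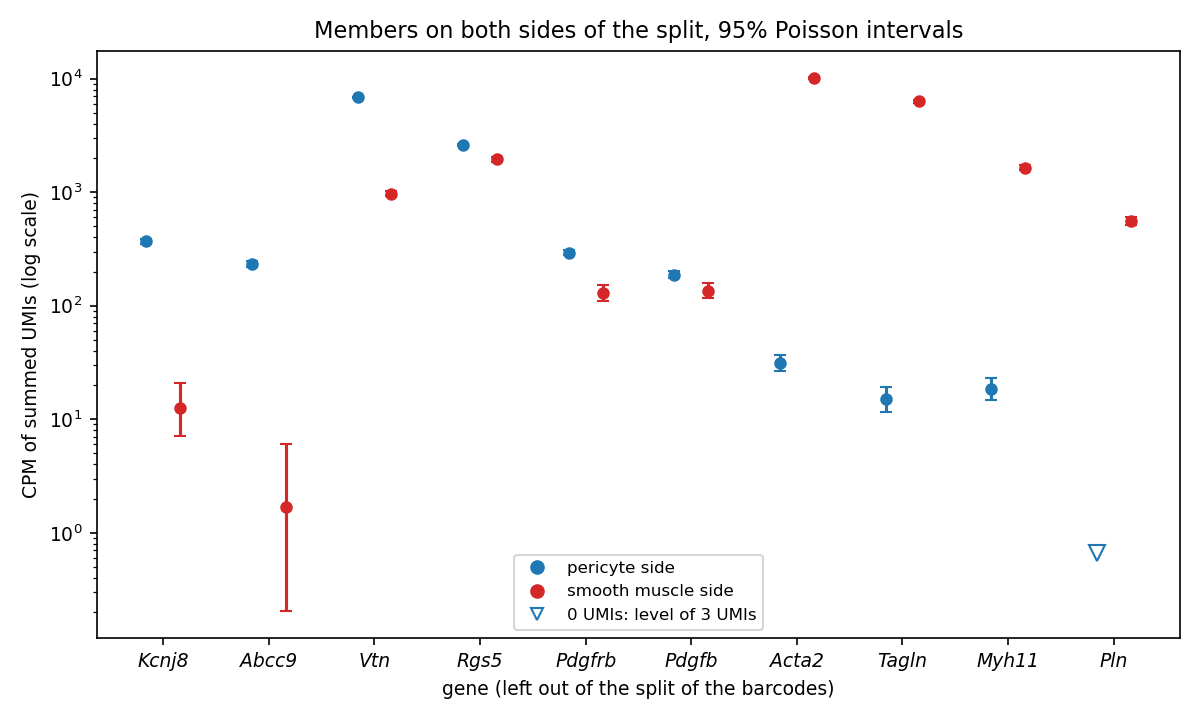
The level of each member in CPM of summed UMIs (y axis, log scale) on the pericyte side (blue) and the smooth muscle side (red), with the gene itself left out of the split and 95% Poisson intervals as bars. Rgs5, Pdgfrb and Pdgfb lie close together on both sides, and the open triangle marks Pln, with 0 UMIs on the pericyte side, at the level of 3 UMIs.

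The differences were also measured at equal depth. The sides stayed as set from the full counts of Kcnj8, Abcc9, Vtn, Acta2, Tagln, Myh11 and Pln, so for these genes the values describe the split. Only Rgs5, Pdgfrb and Pdgfb had no part in it. With every barcode thinned to 1000 UMIs, Kcnj8 was found in 37.0% of pericyte-side barcodes and in none of the 116 smooth muscle-side barcodes, which with the same limit of 3 counts allows up to 2.59%, and Abcc9 in 25.5% and none. Acta2 was found in 2.52% and 94.8%, Tagln in 1.12% and 89.7%, Myh11 in 2.24% and 70.7%, and Pln in none and 44.8%. Rgs5 was found in 88.2% and 60.3%, Pdgfrb in 35.3% and 13.8% and Pdgfb in 13.2% and 10.3%.

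Among the 4 genes that defined the mural barcodes, 2 were over 2-fold higher on the smooth muscle side, against 3.85% of all genes tested. Every barcode was chosen by UMIs of 2 or more of these 4 genes. Their levels and shares are therefore shaped by that rule and are given as a description. Des was at 65.5 CPM on the pericyte side and 478 on the smooth muscle side (7.29-fold, 6.32 to 8.42) and Myl9 at 526 and 3161 (6.01-fold, 5.70 to 6.33). Notch3 was at 163 and 251 CPM (1.54-fold, 1.34 to 1.77), and Higd1b at 587 and 404 CPM (1.45-fold, 1.32 to 1.61), the last being higher on the pericyte side. Higd1b was found in 96.9% of pericyte-side and 70.7% of smooth muscle-side barcodes. In barcodes under 10% of the level of endothelial markers, described below, Higd1b was at 1598 and 489 CPM (3.27-fold), and Notch3 turned to 388 CPM on the pericyte side and 327 on the smooth muscle side.

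Many contractile genes are controlled by serum response factor, which binds DNA at a motif known as the CArG box. The RefSeq table (GRCm38.p6) held the bases before the start of 6 members (Kcnj8, Abcc9, Vtn, Rgs5, Acta2 and Pln) and of Notch3, Des and Myl9. In the 250 bases upstream, an exact box was found in 1.47% of 32851 such windows and a box with 1 other base in 7.24%. Among the 9 genes, Myl9 held 1 of each and Acta2 held 2 with 1 other base, and the other 7 held neither. These sequences are shown because both genes were high on the smooth muscle side. Each is 30 bases, 5′ to 3′ on the gene's strand, with the box in capitals. They are named by the distance of the box from the RefSeq start.
Acta2, 84 bases before the start (chr19:34255438-34255467, minus strand): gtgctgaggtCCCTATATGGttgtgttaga
Acta2, 34 bases before the start (chr19:34255388-34255417, minus strand): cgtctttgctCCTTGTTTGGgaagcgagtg
Myl9, 161 bases before the start (chr2:156775293-156775322, plus strand, exact): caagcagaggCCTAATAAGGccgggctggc
Myl9, 99 bases before the start (chr2:156775355-156775384, plus strand): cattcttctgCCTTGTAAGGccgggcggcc

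Both Acta2 stretches fall inside the gene as GENCODE draws it (34241090 to 34255590), because its annotated start lies farther upstream than that of RefSeq. A match is a description of the letters and not evidence of binding.

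Endothelial markers moved with several member levels. The summed CPM of 8 endothelial markers (Cldn5, Pecam1, Cdh5, Flt1, Ly6c1, Slco1a4, Itm2a and Esam) was expressed as a percentage of its level in clear endothelial-like barcodes. Mural barcodes fell into separate groups on this scale. Under 10% lay 230, at 25% or more lay 303, and 17 were between. On the pericyte side 218 of 357 (61.1%) were at 25% or more, and on the smooth muscle side 32 of 116 (27.6%), over a range from 0 to 123% and from 0 to 162%. None of the 8 markers was at 0 on either side. The barcodes at 25% or more also held more RNA: the median on the pericyte side was 13913.5 UMIs, against 3545.5 under 10%, and on the smooth muscle side 16370.5 against 6771. No doublet caller was run, and whether such barcodes hold an endothelial cell beside a mural cell was not tested.

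Pdgfb followed the endothelial markers. Under 10% of the endothelial level, 6 of 126 pericyte-side barcodes held a Pdgfb UMI, at 16.3 CPM (7.46 to 31.0). At 25% or more, 190 of 218 held one, at 214 CPM (200 to 229). On the smooth muscle side the values were 13 of 82 at 26.0 CPM (14.5 to 42.9) and 27 of 32 at 243 CPM (205 to 286). Endothelial-like barcodes themselves were at 305 CPM (293 to 318), with a UMI in 76.1%, and oligodendrocyte-like barcodes of library 3 at 5.24 CPM, with a UMI in 2.77%. In these cells Pdgfb was therefore high with endothelial markers and low in mural barcodes that lacked them.

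In CPM, Kcnj8, Vtn and Rgs5 went the other way on the pericyte side. In pericyte-side barcodes under 10% of the endothelial level, Kcnj8 was at 1146 CPM (1059 to 1239), against 253 (237 to 269) at 25% or more. Vtn was at 17096 CPM (16752 to 17444) against 3762 (3701 to 3824), and Rgs5 at 4264 (4094 to 4440) against 2360 (2311 to 2409). These are shares of all UMIs, and the barcodes at 25% or more were deeper. Uncorrected for depth, the 126 barcodes under 10% held 632 UMIs of Kcnj8, 9425 of Vtn and 2351 of Rgs5. The 218 at 25% or more held 975, 14500 and 9095. In UMIs per barcode, Rgs5 was therefore higher at 25% or more, and Kcnj8 and Vtn were only slightly lower. Shares of barcodes with a UMI moved little, at 85.7% and 84.9% for Kcnj8 and 100% and 99.5% for Rgs5. On the smooth muscle side Rgs5 was instead lower under 10%, at 1601 CPM (1499 to 1707), than at 25% or more, at 2286 CPM (2166 to 2410). Acta2 there was at 14287 CPM (13981 to 14599) under 10% and 3474 (3326 to 3627) at 25% or more. Library 2 gave 18 of the 82 smooth muscle-side barcodes under 10% and 1 of the 32 at 25% or more. Its smooth muscle side was lower in Rgs5 and higher in Acta2 than that of library 3, as given below. The part of the libraries in these differences was not tested.

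Between barcodes under 10% only (126 and 82), the sides were farther apart. The ratio was 50.9-fold for Kcnj8, 22.7-fold for Vtn, 4.65-fold for Pdgfrb and 2.66-fold for Rgs5, all higher on the pericyte side, and 563-fold for Acta2, 483-fold for Tagln and 129-fold for Myh11, all higher on the smooth muscle side. Pdgfb was at 16.3 and 26.0 CPM, with 9 and 15 UMIs in all. This comparison was added after the data were seen, and 18 of the 82 barcodes on the smooth muscle side were of library 2.

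**Figure D3:**
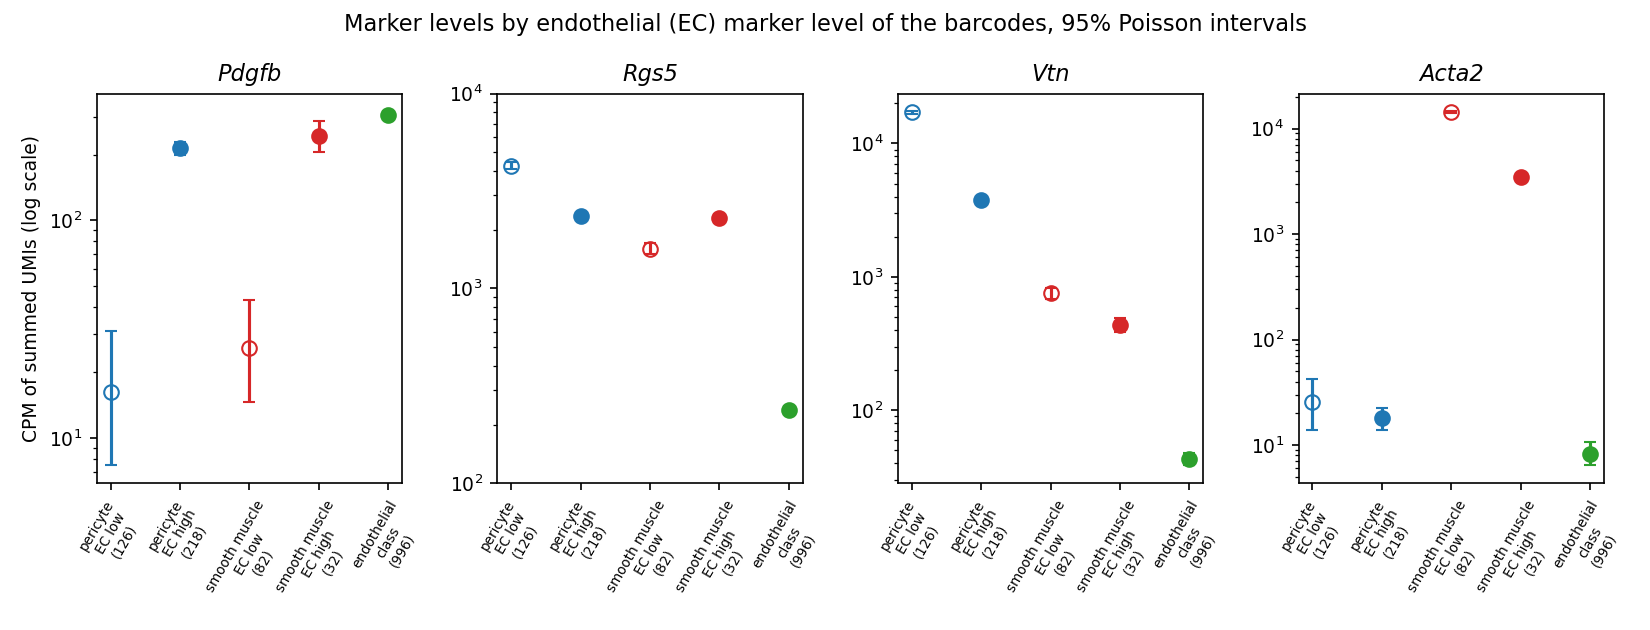
Levels of Pdgfb, Rgs5, Vtn and Acta2 in CPM of summed UMIs (y axes, log scale, 95% Poisson intervals) in pericyte-side (blue) and smooth muscle-side (red) barcodes under 10% (open, EC low) and at 25% or more (filled, EC high) of the endothelial level, and in endothelial-like barcodes (green), with the number of barcodes in parentheses. Pdgfb is higher at the higher endothelial level on both sides, whereas Vtn on both sides and, on the smooth muscle side, Acta2 are lower. Rgs5 is lower at the higher endothelial level on the pericyte side and higher on the smooth muscle side. Library 2 gave 18 of the 82 barcodes of the open red points and 1 of the 32 of the filled red points.

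Other cell types' markers were less frequent in mural barcodes. On the pericyte side 27 barcodes reached 25% of the oligodendrocyte level and 21 that of microglia, and on the smooth muscle side 3 and 4. For neuroblasts the counts were 4 and 3, for neurons 5 and 1, for ependymal cells 5 and 0, and for fibroblasts 1 and 0. For T cells, NK cells, macrophages, neutrophils, B cells and astrocytes they were 0 on both sides. Over all mural barcodes, mixed ones and those with few UMIs included, 39 reached 25% of the oligodendrocyte level and 31 that of microglia. For astrocytes the count was then 4, and for neutrophils and oligodendrocyte precursors 2 each.

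Outside the mural barcodes, most members were scarce. Mural barcodes held 90.2% of all kept UMIs of Kcnj8, 91.6% of Abcc9, 91.5% of Vtn, 84.8% of Rgs5 and 86.4% of Pdgfrb. They held 94.2% of Acta2, 94.2% of Tagln, 94.9% of Myh11 and 77.5% of Pln. Pdgfb was the exception, with 7.85% in mural, 15.8% in endothelial-like and 65.9% in microglia-like barcodes. Cell classes were named from fixed marker panels, and 3455 barcodes stayed unnamed.

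Pdgfb was detected in 4918 of 11586 microglia-like barcodes (42.4%), at 95.9 CPM (94.1 to 97.8). By library its level there was 79.7, 82.3 and 189 CPM in libraries 1, 2 and 3. With all libraries pooled, the order of the classes was endothelial-like, pericyte side, smooth muscle side and microglia-like, and neighbouring intervals did not overlap. Within library 3 this order did not hold: microglia-like barcodes were at 189 CPM (182 to 197), the pericyte side at 188 (176 to 202) and the smooth muscle side at 152 (129 to 178). With all libraries pooled, both sides under 10% of the endothelial level, at 16.3 and 26.0 CPM, lay below the microglia-like barcodes. Rgs5 came next after both mural sides in endothelial-like barcodes, at 238 CPM (227 to 249), with a UMI in 299 of 996 barcodes. Of these 299, 88 also held 1 of the 4 genes of the mural rule, against 132 of all 996. Oligodendrocyte-like barcodes of library 3 held a UMI of Rgs5 in 6.54%.

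Fibroblast-like barcodes held Vtn, Pdgfrb and, far below the smooth muscle side, Tagln. In 24 such barcodes Vtn was at 6290 CPM (5866 to 6736), with a UMI in 21. This was above the whole pericyte side (5475 CPM) and below its barcodes under 10% of the endothelial level (17096 CPM). Pdgfrb was at 223 CPM (149 to 320), with a UMI in 13, and its interval overlapped those of the neighbours in the order, since the pericyte side was at 293 and the smooth muscle side at 130 CPM with an interval that reached 152. Tagln was at 200 CPM (131 to 293), with a UMI in 7, against 5857 CPM on the smooth muscle side. Kcnj8, Rgs5, Pdgfb and Acta2 had 1 UMI each there, and Abcc9, Myh11 and Pln had none. A gene of the mural rule was held by 12 of the 24 barcodes. It was held by 11 of the 21 with Vtn, 7 of the 13 with Pdgfrb and 3 of the 7 with Tagln. One barcode gave 16.3% of the Vtn UMIs, 20.7% of Pdgfrb and 23.1% of Tagln.

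Smaller signals stood in other classes. Pdgfrb was at 70.7 CPM (54.6 to 90.2) in astrocyte-like barcodes, with a UMI in 50 of 262. A gene of the mural rule was held by 5 of the 50 and by 23 of all 262. Acta2 was at 124 CPM (84.0 to 176) in 10 of 31 ependymal-like barcodes, where 1 barcode gave 32.3% of the UMIs, and at 35.2 CPM (25.6 to 47.3) in 29 of 279 neutrophil-like barcodes. Vtn was at 29.3 CPM (24.1 to 35.3) in choroid plexus-like barcodes, with a UMI in 66 of 226.

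Kcnj8 was also found at a low level in lymphocytes. It was at 4.88 CPM (3.78 to 6.20) in T cell-like barcodes, with a UMI in 61 of 2582 (2.36%), and at 5.60 CPM (2.80 to 10.0) in NK cell-like barcodes, with a UMI in 10 of 319. None of the 61 held a gene of the mural rule, but only 3 of all 2582 T cell-like barcodes did, so this says little. In library 1, T cell-like barcodes were at 6.61 CPM (4.70 to 9.03) and microglia-like barcodes at 0.0315 CPM. In library 2 they were at 3.38 CPM (2.21 to 4.95), and no microglia-like barcode of 6036 held Kcnj8, which allows a share of up to 0.0497% by the limit of 3 counts. The median depths of these classes were 4715.5 and 7360.5 UMIs. Only 6 of the 61 barcodes held more than 1 UMI of Kcnj8.

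Pln was at 1.28 CPM (1.07 to 1.52) in microglia-like barcodes, where 122 of 11586 held a UMI, and at 0.262 CPM (0.153 to 0.420) in oligodendrocyte-like barcodes. Microglia-like barcodes held 15.8% of all kept Pln UMIs. In library 3 alone the levels were 0.502 CPM (0.202 to 1.03) and 0.344 CPM (0.157 to 0.653), with overlapping intervals. Myh11 was at 1.53 CPM (0.791 to 2.67) in endothelial-like and 0.222 CPM (0.141 to 0.333) in microglia-like barcodes. Small classes limit Myh11 less tightly, as 0 UMIs in fibroblast-like barcodes allow up to 28.4 CPM by the Poisson interval.

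**Figure D4:**
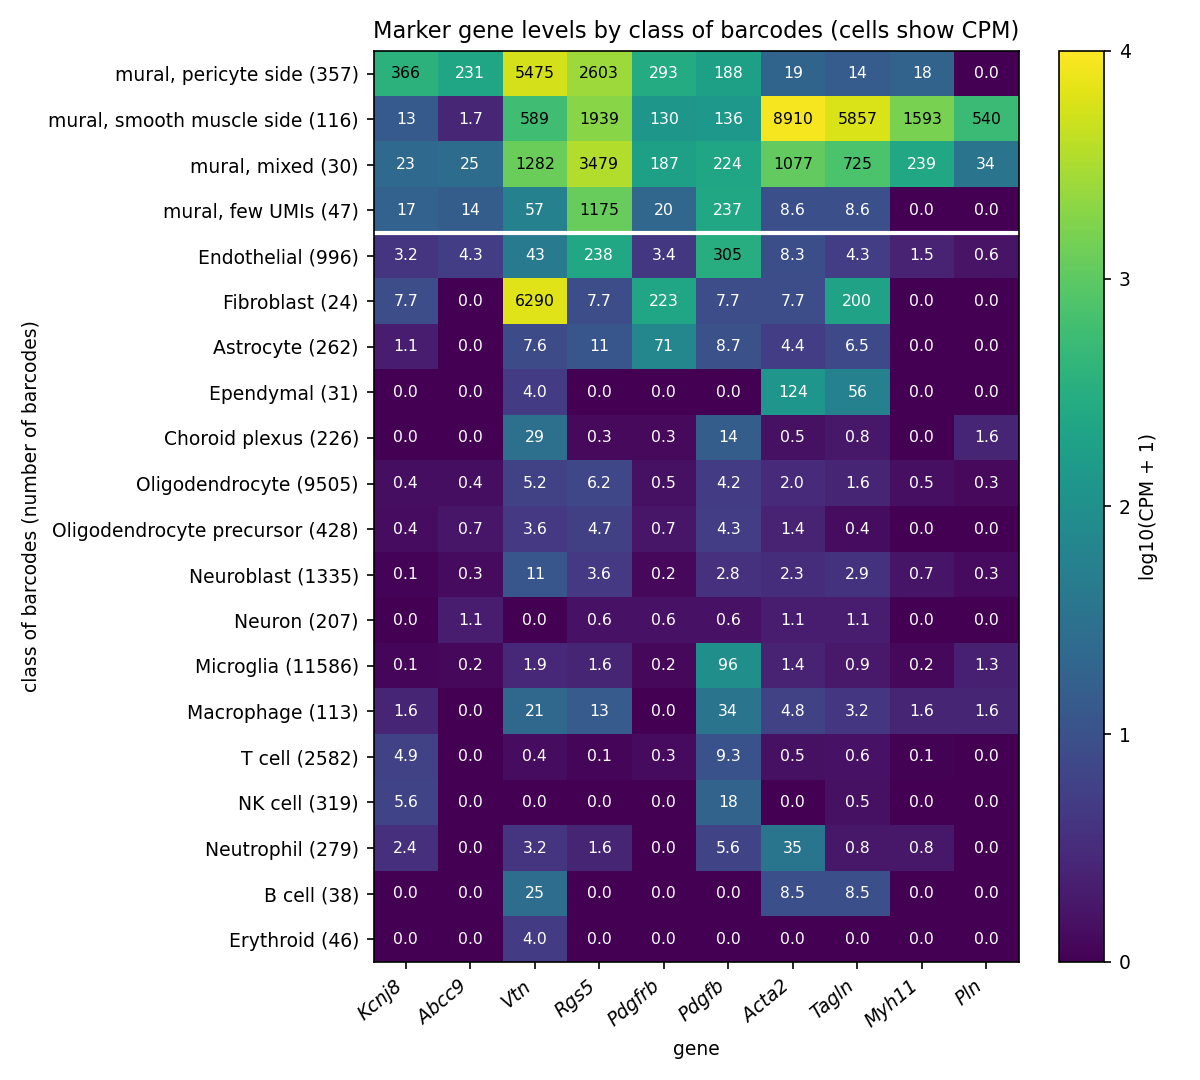
Level of the 10 members (columns) in CPM of summed UMIs, printed in each cell and coloured as log10(CPM + 1), for the 4 sets of mural barcodes (above the white line) and 16 other classes (rows, number of barcodes in parentheses). Most of the bright cells lie in the mural rows. Outside them, bright cells include Pdgfb and Rgs5 in the endothelial-like row and Pdgfb in the microglia-like row. Vtn, Pdgfrb and Tagln are bright in the fibroblast-like row and Acta2 in the ependymal-like row.

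Over all 11938 genes with at least 10 UMIs on both sides together, 306 were at least 2-fold higher on the pericyte side (2.56%) and 460 on the smooth muscle side (3.85%), on the scale of CPM plus 10. The median log2 difference over all of them was 0.05. Among the members 4 were past 2-fold on the pericyte side and 4 on the smooth muscle side, with Rgs5 and Pdgfb past neither, and nothing is read from this since 7 of the 10 made the split.

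Most genes of a second list, called contractile here and not used in the split, were higher on the smooth muscle side. The list was chosen with earlier results of these data known, so its counts are a description. Of 16 other contractile genes, 12 were past 2-fold there and none on the pericyte side, with a median log2 difference of -2.44 against 0.05 for all genes. Tpm2, a tropomyosin, was at 74.0 CPM on the pericyte side and 3096 on the smooth muscle side (41.8-fold). Lmod1, leiomodin, was at 6.69 and 263 CPM (39.3-fold), Sncg, gamma-synuclein, at 9.81 and 502 CPM (51.2-fold), and Mylk, the myosin light chain kinase, at 109 and 1123 CPM (10.3-fold). Cnn1, calponin, had 1 UMI on the pericyte side and 94 on the smooth muscle side. Cald1, Ppp1r14a, Synpo2 and Smtn were past neither limit, at log2 differences between -0.85 and -0.60.

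The 16 other pericyte genes, also chosen with earlier results known, were less uniform. On the pericyte side 8 were past 2-fold, on the smooth muscle side 2, and 6 on neither, with a median log2 difference of 1.11. Ggt1, gamma-glutamyltransferase, was at 133 and 4.22 CPM (31.4-fold), Atp13a5, a P5-type ATPase, at 235 and 22.8 CPM (10.3-fold), and Slc6a20a, an amino acid transporter, at 139 and 15.2 CPM (9.15-fold). Anpep, aminopeptidase N, had 150 and 2 UMIs. Mcam, an adhesion molecule also known as CD146, was higher on the smooth muscle side, at 81.4 and 345 CPM (4.23-fold), as was Slc38a11, at 34.1 and 113 CPM (3.32-fold). Cspg4, the NG2 proteoglycan used as a marker of mural cells in general, was at 112 and 144 CPM.

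In barcodes under 10% of the endothelial level, the counts moved to 13 of 16 pericyte genes past 2-fold on the pericyte side and 1 on the smooth muscle side (median 2.66), and 13 of 16 contractile genes on the smooth muscle side (median -3.10, or -3.09 with genes at 0 UMIs set to 3). Of 8805 genes tested there, 10.8% were past 2-fold on the pericyte side and 6.98% on the smooth muscle side, and the median of all genes was 0.14. Ifitm1, an interferon-induced membrane protein, went from 457 and 231 CPM to 736 and 45.0 CPM, and it was at 234 CPM in endothelial-like barcodes. Mcam stayed higher on the smooth muscle side, at 205 and 527 CPM. Cspg4 turned to the pericyte side, at 316 and 211 CPM, as did Cald1, at 1845 and 1739 CPM, and Ppp1r14a, at 843 and 703 CPM. Of the 10 members, 5 were then past 2-fold on the pericyte side, Rgs5 included, and 4 on the smooth muscle side, and Pdgfb was past neither.

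**Figure D5:**
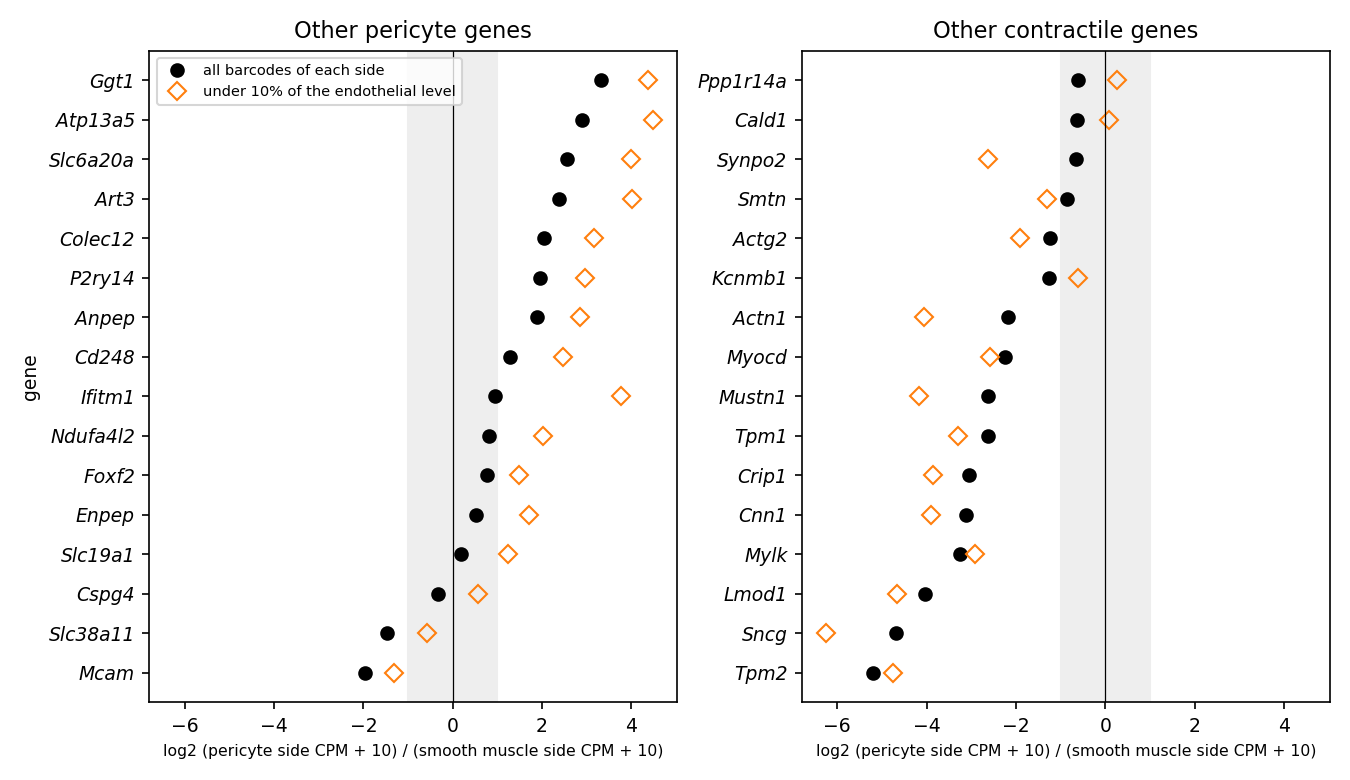
Log2 of pericyte-side CPM plus 10 over smooth muscle-side CPM plus 10 (x axis) for the 16 other pericyte genes (left) and 16 other contractile genes (right), for all barcodes of each side (black) and for barcodes under 10% of the endothelial level (open orange). Grey marks less than 2-fold. Most pericyte genes lie to the right of 0 and move farther right without endothelial-marked barcodes, and contractile genes lie mostly to the left.

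Among listed partners and relatives of the members, Pdgfa, Pdgfc, Atp2a2 and Myocd were past 2-fold, all on the smooth muscle side. They were 2 of 4 tested genes of the PDGF family, 1 of 2 tested calcium pump genes and 1 of 4 of serum response factor and its coactivators. Over all genes the share past 2-fold was 3.85% on that side and 2.56% on the pericyte side. Of the PDGF family, Pdgfa was higher on the smooth muscle side, at 91.4 and 387 CPM (4.23-fold), as was Pdgfc, with 3 and 17 UMIs, while Pdgfd was at 23.9 and 12.7 CPM and Pdgfra had 9 and 2 UMIs. Kcnj11 and Abcc8, the ATP-sensitive potassium channel subunits of pancreas and neurons, had no UMI on either side. Atp2a2, the calcium pump that phospholamban inhibits, was at 123 and 445 CPM (3.62-fold), and Atp2a3, another pump of the family, at 93.4 and 111 CPM, or 261 and 98.7 CPM under 10% of the endothelial level. Their relative Atp2a1 had no UMI, and Sln, sarcolipin, had 3 in all. The 4 vitronectin receptor genes Itgav, Itgb3, Itgb5 and Plaur were past 2-fold on neither side, with log2 differences between -0.56 and 0.93. Of serum response factor and its coactivators, Myocd, the myocardin of smooth and cardiac muscle, had 3 UMIs on the pericyte side and 48 on the smooth muscle side, while Srf was at 50.6 and 48.1 CPM and Mkl1 and Mkl2 were past neither limit.

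The 10 genes that led each side, among those found in at least 25% of its barcodes and without the split genes, were as follows in order of their log2 difference with 10 CPM added. On the pericyte side they were Scgb3a1, Ggt1, Spp1, Atp13a5, Pla1a, Slc22a8, Ctla2a, Slc6a20a, Nts and Art3. Scgb3a1 and Ctla2a were at 545 and 1472 CPM there, at 802 and 2178 CPM in endothelial-like barcodes, and at 10.9 and 30.8 CPM in pericyte-side barcodes under 10% of the endothelial level. Spp1, osteopontin, Pla1a, a phospholipase, and Nts, neurotensin, were at 756, 239 and 198 CPM in those barcodes and at 5.74, 0.638 and 0.383 CPM in endothelial-like barcodes. On the smooth muscle side they were Tpm2, Palld, Sncg, Crispld2, Pdlim3, Lmod1, Fxyd1, Map3k7cl, Nrip2 and Atp1b1. Palld, the actin-associated palladin, was at 349 CPM there and 3.34 on the pericyte side (104-fold).

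The smooth muscle side of library 2 can be set beside that of library 3. In 19 and 96 barcodes, Acta2 was at 15195 CPM (14596 to 15813) and 7886 CPM (7715 to 8061), Rgs5 at 553 (443 to 681) and 2168 (2078 to 2260), and Vtn at 226 (158 to 313) and 651 (602 to 702). The share at 25% or more of the endothelial level was 1 of 19 and 31 of 96. There was 1 library each, and the parts of the library and of the endothelial markers in these differences were not tested.

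Over 35 sets of at least 20 barcodes (a class within a library), the genes most like Kcnj8 by Pearson's r of log2(CPM + 10) were Saa2 (0.927), Nodal (0.919) and Gm36823 (0.919). Those most like Acta2 were Myh11 (0.936), St6galnac2 (0.922) and Map3k7cl (0.922), and those most like Pdgfb were Cd34 (0.904), Ecscr (0.895) and Psma8 (0.889). The sets share libraries and depth, and only 1 was of the pericyte side and 1 of the smooth muscle side, both of library 3, so that these values are a description. St6galnac2 had only 3 UMIs over both sides.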

How the data were processed

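The authors deposited 1 matrix of UMI counts per gene and barcode for 3 pooled Chromium Single Cell 3′ v3 libraries, made with Cell Ranger 3.1.0 and STAR on mm10 according to the submitters' processing notes and the study's methods, which also describe down-sampling of reads on aggregation. Seurat 3.1.1 is named there for later steps. The counts were used as deposited. The members and lists were chosen with earlier results of these data known. Cell classes followed fixed marker panels, with cuts set after the data were seen: a barcode took the class with the highest panel level, if at least 25% of that in barcodes with 60% or more of the panel's markers and 2 times the next class. No clustering and no doublet caller were run. Levels are UMIs summed over barcodes as CPM with exact Poisson intervals, and shares have exact Clopper-Pearson intervals, all at 95% and for counting error only. A gene with 0 UMIs was limited by 3. Ratios across all genes used CPM plus 10 for genes with at least 10 UMIs, with a limit of 2-fold. As the matrix is 1 pooled sample, no p-value was computed. Simulated counts with 200 genes changed 4-fold between the sides gave 99.5% of them past the limit and 0 unchanged genes, with 10989 genes tested in all. The changed genes were drawn from those with at least 200 UMIs, and the noise was Poisson only. The simulated sides were equal in size, unlike the real ones. Each held more UMIs than the real smooth muscle side, and than either side under 10% of the endothelial level or without library 3. The simulation therefore does not cover the gene counts given here. Genes named are the members, the 4 mural genes, the fixed lists, the 10 leading genes of each side and the 3 genes most like Kcnj8, Acta2 and Pdgfb. Coordinates are from GENCODE M21 (GRCm38). Python 3.11.15, NumPy 2.4.6, SciPy 1.17.1, pandas 2.3.3 and Matplotlib 3.10.9 were used. Alternatives were other filters, gates, cuts, split genes, pseudocounts and minima, thinning, and leaving out each library.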

Additional observations from a re-analysis of the deposited data

Results flagged for a closer look

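Among the 3986 barcodes removed by the filters, 28 held a UMI of 2 or more of the 4 mural genes, a signal in barcodes that no comparison above used. Of these, 26 were under the minimum of 1000 UMIs and 2 over the mitochondrial limit, and 26 were of library 3. Their median was 786 UMIs. By the same split, 9 were on the pericyte side, 8 on the smooth muscle side, 4 mixed and 7 with too few UMIs.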

How the results depend on the processing

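Leaving out library 3 left 33 mural barcodes, and leaving out each library in turn gave between 33 and 545. The pericyte-side share then ran from 21.2% to 67.6%, the smooth muscle-side share from 18.6% to 60.6%, and genes 2-fold higher on the pericyte side from 278 to 770. Without mural barcodes at 25% or more of another cell type's level, 190 remained, with 56.3% on the pericyte side, 38.9% on the smooth muscle side, and 946 and 693 genes past 2-fold. Without those at 25% of the endothelial level (added after the data were seen), 247 remained, with 56.3% and 34.0%, and 1038 genes higher on the pericyte side. Under 10% of that level (also added), the values were 230, 54.8%, 35.7% and 949. The pericyte-side share was 69.2% with at least 3 mural genes, 44.4% without Vtn, 74.0% with Rgs5 and Pdgfrb added, 69.1% without Acta2 and Tagln and 49.1% in thinned barcodes. The smooth muscle-side share was 27.1% without Vtn, 14.5% with Rgs5 and Pdgfrb added and 13.1% without Acta2 and Tagln. Upper limits of mean plus 2 SD gave 815 genes higher on the pericyte side. A pseudocount of 1 gave 1166 and 872 genes, and of 50 gave 80 and 171. The cause of these moves was not tested. Of the planned values of the main counts and shares, 42 stayed within their limits (1.5 times for a count, the counting interval for a share) and 22 moved. The larger side turned from pericyte to smooth muscle without library 3, and the larger count of genes past 2-fold turned from the smooth muscle side (306 and 460) to the pericyte side without library 3, without barcodes at another cell type's or at the endothelial level, under 10% of the endothelial level (949 and 615) and with a pseudocount of 1. Under 10% of the endothelial level Pdgfb, Notch3 and Atp2a3 changed sign between the sides. So did Cspg4, Cald1, Ppp1r14a, Pdgfd, Itgav, Itgb5, Plaur, Srf, Mkl1, Mkl2 and Sln, each less than 2-fold apart in both comparisons. Among single genes 60 stayed and 37 moved. No paired analysis was possible because each condition has 1 library and the barcodes carry no condition. Of both sides, depth limits the smooth muscle side more, where 3 UMIs stand for 2.53 CPM, against 0.669 CPM on the pericyte side.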

Other observations

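The 30 mixed barcodes held genes of both sides at once, as their definition requires. Vtn was found in 29 of them at 1282 CPM, Acta2 in 27 at 1077 CPM, Myh11 in 26 at 239 CPM and Rgs5 in 29 at 3479 CPM. Kcnj8 was found in 6 at 22.6 CPM and Pln in 8 at 33.9 CPM. Their median depth was 11479 UMIs, and 20 of the 30 were at 25% or more of the endothelial level. The 8 under 10% of that level held Vtn at 5913 CPM and Acta2 at 5174 CPM.

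The 47 mural barcodes with under 3 UMIs of the split genes differed in their members. Rgs5 was found in 34 of them at 1175 CPM, Pdgfb in 26 at 237 CPM, Pdgfrb in 6 and Vtn in 16 at 57.2 CPM. Of the 47, 33 were at 25% or more of the endothelial level, and 20 held none of the 7 split genes.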
